A study of Mus musculus with 21 samples.

Results

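Monocyte/macrophages that had entered the mouse peritoneal cavity by 18 h of zymosan peritonitis were compared with the resident macrophages of naive mice, to ask which parts of the resident expression programme were still missing on the first day. The groups were taken from the source labels, with 3 arrays each, 6 of the 21 arrays of the series, and all genes with a probe set assigned to them alone entered the comparison. All mice were female C57BL/6 animals of 7 to 8 weeks, and the labels name no mutant allele or transgene. The 18 h mice had received zymosan, particles of yeast cell wall that phagocytes ingest, into the peritoneal cavity. Their cells were sorted as Ly-6B positive to low and Ly-6G negative, a gate that keeps monocytes and young macrophages and leaves out neutrophils. Resident cells came from mice that had received no zymosan and were sorted as high in F4/80 and high in CD11b. The other 15 arrays (bone marrow monocytes, 4 h, 72 h and both 168 h populations) served to estimate the spread and, in places, to set levels side by side. The groups differed in zymosan exposure, in sort gate and possibly in the origin of the cells, and these differences cannot be told apart. The labels call the arrays biological replicates and do not say whether mice were pooled. In sorted bulk cells, fewer cells carrying a transcript and less of it in each cell cannot be told apart either.

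Resident peritoneal macrophages are large, long-lived cells whose identity depends on the transcription factor GATA6, which retinoic acid made in the omentum and peritoneal lining induces. They carry TIM4 for the uptake of dying cells, supply complement and the B-cell chemokine CXCL13, and make lipid mediators through 12/15-lipoxygenase. Classical monocytes leave the bone marrow and enter inflamed tissue through CCR2. In the tissue they lose monocyte genes and, over days, take on genes of the local macrophages. Levels below are deposited array signals on a linear scale, and a log2 fold change is the 18 h value minus the resident value on log2(signal + 15), given with its standard error (SE). A gene was called higher or lower at 18 h when limma's test with Benjamini-Hochberg adjustment over all genes tested gave an adjusted p under 0.05 and the change was at least 2-fold. A gene is described as within 2-fold when its 95% confidence interval lay between -1 and 1 on the log2 scale.

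Promoters are shown for 2 of the genes that were lowest at 18 h and 2 that were highest, because these pairs stand at opposite ends of the comparison. Each runs 5′ to 3′ on the gene's strand from 250 bases before to 50 bases after the annotated start, 300 bases in all, from RefSeq on GRCm38.p6. Capitals mark a match on either strand to AGATAA (the letters GATA factors bind), GAGGAAGT (a PU.1 site) or AGGTCA (a motif of nuclear receptors such as the retinoid receptors). Timd4, which encodes TIM4, lies at chr11:46810549-46810848 on the plus strand and its window holds the nuclear receptor motif. Tgfb2, transforming growth factor beta 2, lies at chr1:186705940-186706239 on the minus strand with a GATA match read on the opposite strand. Ltb4r1, the high-affinity receptor for leukotriene B4, lies at chr14:55765712-55766011 on the plus strand with a PU.1 match on the opposite strand. Ccr2 lies at chr9:124101933-124102232 on the plus strand with a GATA match on the opposite strand.
Timd4: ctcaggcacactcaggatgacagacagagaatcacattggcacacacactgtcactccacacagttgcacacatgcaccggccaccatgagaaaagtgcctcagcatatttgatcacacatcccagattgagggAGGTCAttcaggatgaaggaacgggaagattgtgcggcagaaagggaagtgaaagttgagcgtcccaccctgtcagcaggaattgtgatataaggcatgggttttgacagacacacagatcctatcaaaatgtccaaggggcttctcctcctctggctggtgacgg
Tgfb2: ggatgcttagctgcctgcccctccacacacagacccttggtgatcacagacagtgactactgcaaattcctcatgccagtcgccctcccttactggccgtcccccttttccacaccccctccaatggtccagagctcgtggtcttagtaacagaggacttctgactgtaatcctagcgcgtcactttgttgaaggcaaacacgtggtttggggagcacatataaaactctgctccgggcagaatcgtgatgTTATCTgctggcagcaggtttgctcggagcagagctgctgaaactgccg
Ltb4r1: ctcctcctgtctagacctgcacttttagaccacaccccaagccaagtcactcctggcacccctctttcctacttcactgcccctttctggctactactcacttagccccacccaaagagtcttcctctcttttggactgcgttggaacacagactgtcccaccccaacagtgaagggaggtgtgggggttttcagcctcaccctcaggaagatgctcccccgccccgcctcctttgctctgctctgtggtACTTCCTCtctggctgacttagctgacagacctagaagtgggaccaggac
Ccr2: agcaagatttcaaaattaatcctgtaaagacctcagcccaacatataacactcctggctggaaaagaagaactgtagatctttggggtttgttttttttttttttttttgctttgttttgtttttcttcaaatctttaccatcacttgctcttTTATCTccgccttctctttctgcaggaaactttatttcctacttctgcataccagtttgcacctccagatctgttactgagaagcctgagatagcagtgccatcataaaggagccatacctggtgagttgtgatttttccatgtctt
Over all 32851 windows of that length in the table, 11.2% held AGATAA, 3.2% GAGGAAGT and 16.3% AGGTCA. The 12 genes with the largest increase had 15 windows, of which 3 held the GATA letters (Ccr2, Chil3 and E230016K23Rik), 1 the PU.1 letters and 1 the nuclear receptor letters. Of the 12 genes with the largest decrease, 10 matched the table with 17 windows, of which 1 held the GATA letters, 1 the PU.1 letters and 2 (11.8%) the nuclear receptor letters (Rad51b and Timd4). Among the resident identity genes called lower, 14 of 20 matched, with 16 windows, and 4 (25.0%) held the nuclear receptor letters (Cxcl13, F5, Selp and Timd4), 1 the GATA letters and 0 the PU.1 letters. These matches describe short windows and do not show that a factor binds there.

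Of 12169 genes tested, 634 (5.21%) were called higher and 1216 (9.99%) lower at 18 h. For 7170 genes (58.9%) the 95% interval lay within 2-fold, and for 5996 (49.3%) the arrays of the groups did not overlap. The median gene changed by -0.08 and the median of the arrays over the genes tested was lower at 18 h, by a log2 shift of -0.12. With every array set to a common median, 776 genes were called higher and 1036 lower, so the share of calls that were higher went from 34.3% to 42.8%. Among genes called lower, 142 had less than 10% of the resident signal at 18 h and 2 less than 1%, while 1068 kept between 10% and 50%. The 18 h arrays were below the median of the whole table, 80.6, in all 3 replicates for 340 of the genes called lower. Among genes called higher, 74 were more than 10-fold above the resident mean and 263 more than 4-fold. Array medians ran from 69.5 to 79.4 at 18 h and from 84.8 to 87.1 in resident macrophages, and the 3′ to 5′ ratio of Gapdh probe sets, a measure of RNA integrity, from 1.64 to 2.12 and from 2.04 to 2.29. With that ratio as a covariate, 623 genes were called higher and 1175 lower. Ribosomal protein genes lay within 2-fold in 11 of 12 cases (91.7% against 58.9% of all genes), with a median of -0.30. With the probe sets of each gene averaged, 530 genes were called higher and 1005 lower. Among the genes named below, the calls of Anxa2, Cfp, Cycs, Dgat2, Fdps, H2-DMb2, Ighm, Il7r, Itgb1, Slc7a2, Tfrc, Tgfbr2, Tlr7 and Top2a were lost in that fit. The calls of Ahr, Entpd1, H2-Aa, Hif1a, Hmgcs1, Il1rn, Maf, S1pr2, Tgm2 and Tlr3 were kept. Each of these also had a measured probe set that changed by less than 2-fold. Across genes, which are not independent replicates, arrays correlated at a mean r of 0.978 within 18 h, 0.977 within resident and 0.899 between the groups.

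**Figure D1:**
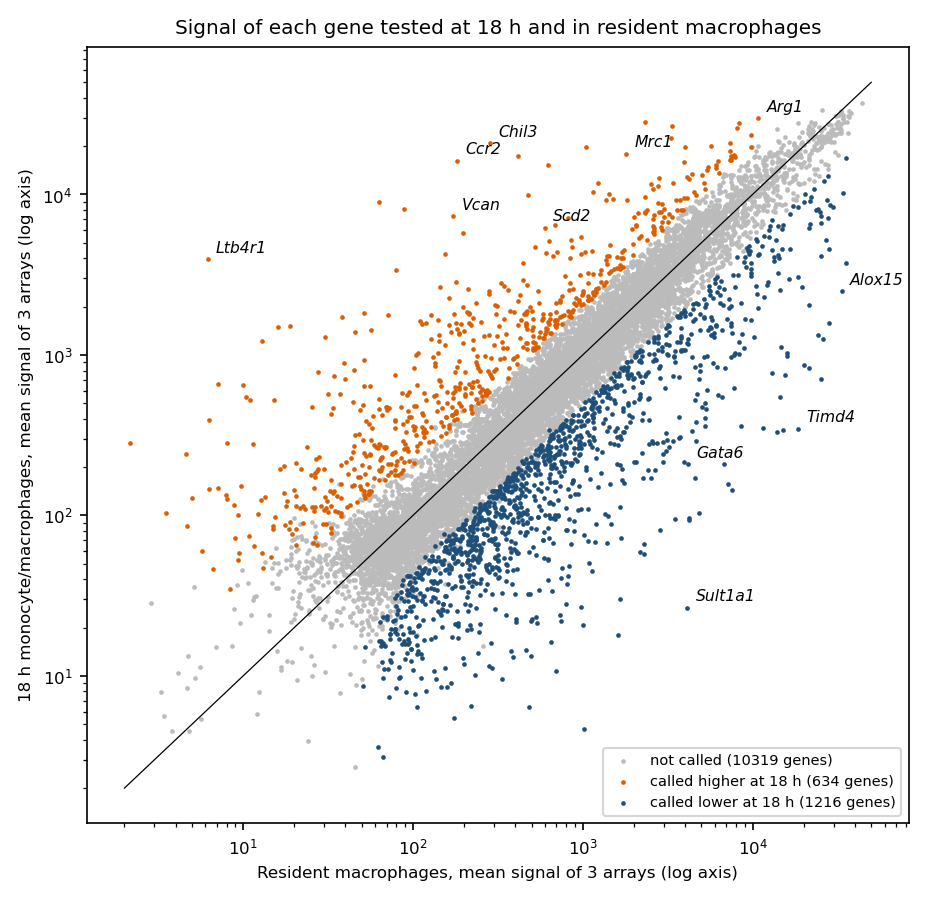
Mean MAS5 signal of 3 arrays for each of 12169 genes tested, in resident macrophages (horizontal, log axis) and at 18 h (vertical, log axis), with genes called higher (634), called lower (1216) or not called coloured separately and the line of equal signal drawn. Timd4 and Sult1a1 lie far below the line and Ltb4r1 and Ccr2 far above it, while Arg1 lies above it at high signal in both groups.

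The marker genes given for the comparison stood far apart between the groups. Tgfb2 measured 370.5, 339 and 281 at 18 h and 14670, 12440 and 14590 in resident macrophages (log2 fold change -5.34 ± 0.32, adjusted p = 6.87e-11). Fabp4, a fatty acid binding protein of macrophages and fat cells, measured 336, 331 and 357 at 18 h against 14360, 15710 and 15380 (log2 fold change -5.41 ± 0.26, adjusted p = 2.72e-12). Both were near 2% of the resident level at 18 h (2.37% and 2.25%), and no 18 h array came near a resident one. In the other direction, Ccr2 measured 14390, 15270 and 19100 at 18 h against 317, 98.4 and 130 (log2 fold change 6.52 ± 0.34, adjusted p = 7.8e-12). Mrc1, the mannose receptor, measured 14770, 20610 and 18590 at 18 h against 2320, 1451 and 1646 (log2 fold change 3.32 ± 0.21, adjusted p = 1.58e-10). Scd2, a stearoyl-CoA desaturase that puts a double bond into saturated fatty acids, measured 7373, 5504 and 5798 at 18 h against 768, 555 and 467 (log2 fold change 3.37 ± 0.30, adjusted p = 2.54e-08). Every 18 h array lay above every resident array for these 3 genes. The resident sort gate used F4/80 and CD11b, and their genes are given as a check of the labels alone. Adgre1, which encodes F4/80, measured 16490, 17050 and 16890 at 18 h against 33760, 36330 and 36600 (log2 fold change -1.08), a call that was lost after quantile normalization and with a common array median. Itgam, which encodes CD11b, had a log2 fold change of -0.83 and was not called.

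The resident identity list had the lowest median log2 fold change of the 32 process lists, while mitosis had the larger share called lower (78.6%). The list was chosen with earlier results of these data known, so its counts describe the difference and do not test it. Of 29 measured genes of the GATA6 programme, the retinoid axis and resident identity, 20 were called lower (69% against 9.99% of all genes), 0 were called higher, 3 lay within 2-fold and 27 had arrays that did not overlap. Their median log2 fold change was -3.76. Gata6 itself measured 239, 214 and 171 at 18 h and 3979, 4778 and 3808 in resident macrophages (log2 fold change -4.24 ± 0.20, adjusted p = 2.38e-12), 4.97% of the resident mean. Timd4 measured 444, 365 and 232 at 18 h and 18690, 19140 and 18080 in resident macrophages (log2 fold change -5.73 ± 0.34, adjusted p = 4.92e-11), 1.86% of the resident mean. In both genes the lowest resident array was more than 10-fold above the highest 18 h array. Vsig4, a complement receptor of tissue macrophages, measured 811, 817 and 499 at 18 h against 24740, 24060 and 27040, and Ltbp1, which binds latent transforming growth factor beta, 443, 370.1 and 243 at 18 h against 12190, 11230 and 11050. Selp, which encodes P-selectin, measured 666, 640.5 and 324 at 18 h against 15060, 13690 and 14530 (log2 fold change -4.76 ± 0.26, adjusted p = 1.66e-11). The 18 h arrays again sat together at the low end, with replicate 3 the lowest of them in Timd4, Gata6, Tgfb2 and Selp.

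Several secreted products of resident macrophages were reduced to different degrees. Coagulation factor V (F5) measured 751, 959 and 782 at 18 h against 21840, 20240 and 22360, ficolin A (Fcna), a lectin that starts complement on microbial sugars, 876, 954 and 757 at 18 h against 20640, 20310 and 19570, and the B-cell chemokine gene Cxcl13 1461, 2227 and 1039 at 18 h against 26670, 26690 and 30930. Prg4, the lubricant lubricin, kept more of its level, at 4040, 4027 and 3180 at 18 h against 33460, 34540 and 38530 (log2 fold change -3.25), or 10.6% of resident. Several enzyme genes were reduced as well. Ptgis, prostacyclin synthase, measured 1753, 1000 and 1007 at 18 h against 26050, 25260 and 26530, and Nt5e, the ecto-enzyme CD73 that makes adenosine, 69.9, 50.9 and 51.6 at 18 h against 2056, 2502 and 2349. Alox15, the 12/15-lipoxygenase, measured 2324, 3095 and 2075 at 18 h and 32000, 32400 and 36300 in resident macrophages (log2 fold change -3.76 ± 0.65, adjusted p = 0.000109), and the adhesion molecule gene Icam2 2284, 1649 and 2171 at 18 h against 20970, 21410 and 21730 (log2 fold change -3.40 ± 0.17, adjusted p = 8.01e-12). Alox15 and Icam2 thus stood at 7.44% and 9.52% of resident, against 1.86% for Timd4. Less strongly reduced members were Padi4, a peptidylarginine deiminase, with 4192, 2604 and 2915 at 18 h against 14500, 14620 and 13220, and Rarb, the retinoic acid receptor beta, with 318, 222 and 186 at 18 h against 725, 812 and 593 (log2 fold change -1.52).

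A few genes of the resident list were close to the resident level at 18 h. Coagulation factor X (F10) measured 8525, 8284 and 9291 at 18 h against 13600, 14880 and 14620 with a 95% interval of -0.89 to -0.56 for its log2 fold change. Klf2, a transcription factor of quiescent cells, measured 14320, 11540 and 13880 at 18 h against 16710, 19000 and 18310 (interval -0.87 to -0.02), and Rxra, the shared partner of nuclear receptors, 1026, 869 and 904 at 18 h against 1376, 1662 and 1305 (interval -0.95 to -0.29). These 3 lay within 2-fold. F10 and Klf2 were also bright in bone marrow monocytes, with means of 5037 ± 155.5 and 16620 ± 5260 (SD, n = 3 each). At 4 h their means were 15900 ± 194.5 and 4808 ± 1080. The gene of carbonic anhydrase 6, Car6, was not called and measured 2391, 1829 and 1681 at 18 h against 3099, 2928 and 3560, 61.5% of resident, while its mean at 4 h was 136 ± 12.2 (SD, n = 3). Bhlhe40, Cd93, Thbd, Rara and Bhlhe41 were also not called, with log2 fold changes of -0.74, -0.71, 0.46, -0.48 and 0.70. The resident list therefore split into genes at or below the 10.6% of Prg4 and genes at or above the 59.3% of Bhlhe40, with Padi4 at 22.9% and Rarb at 34.1% between them.

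**Figure D2:**
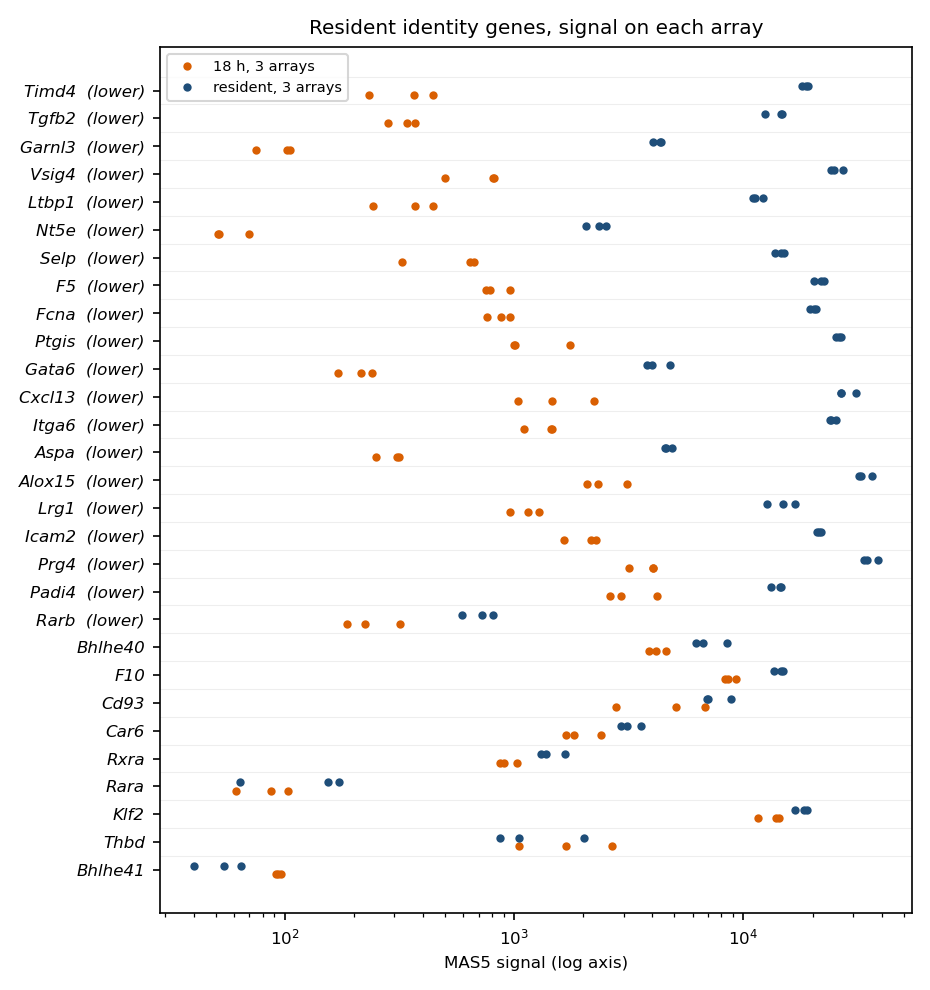
MAS5 signal (log axis) of the 29 measured resident identity genes on each of 3 arrays at 18 h and 3 arrays of resident macrophages, sorted by log2 fold change, with called genes marked in brackets. The 18 h points of Timd4, Tgfb2 and Garnl3 lie furthest to the left of the resident points, and those of F10, Klf2 and Rxra lie close to them.

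Complement genes, which resident macrophages express strongly, were partly in place. Of 16 measured genes 8 were called lower (50% against 9.99% of all genes), 0 higher and 1 lay within 2-fold, with a median log2 fold change of -1.08. C1qa, a chain of the C1q opsonin, measured 8922, 7587 and 9260 at 18 h against 27430, 27580 and 31180 (log2 fold change -1.74 ± 0.33, adjusted p = 0.000307), and C1qc 7761, 8415 and 8863 at 18 h against 26170, 30060 and 33220 (log2 fold change -1.83 ± 0.28, adjusted p = 3.41e-05). The arrays did not overlap, and every 18 h signal of both genes was far above the table median of 80.6. C1qb just missed the fold threshold and measured 16980, 9284 and 16760 at 18 h against 28240, 24140 and 30570 (log2 fold change -0.99 ± 0.23). It was called lower without 18 h replicate 1 or 3 and without resident replicate 2. The 3 chains stood at 29.9%, 51.9% and 28.0% of resident for C1qa, C1qb and C1qc. At 4 h the means of these 3 genes were 615 ± 475, 1225 ± 375 and 816 ± 549 (SD, n = 3 each). Among the alternative pathway genes, factor B (Cfb) measured 958, 811 and 1262 at 18 h against 7011, 9997 and 7974 (log2 fold change -3.03) and properdin (Cfp), which stabilises the convertase, 12530, 12990 and 13480 at 18 h against 27260, 27920 and 28710 (log2 fold change -1.10). C1ra, a C1 protease, was also lower, with a log2 fold change of -1.89. The call of Cfp was lost after quantile normalization and with a common array median. The receptors of the complement fragments were not: C3ar1 measured 7534, 8201 and 5840 at 18 h against 6425, 7120 and 5685 and lay within 2-fold, and C5ar1 had a log2 fold change of 0.51.

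Genes for the uptake of apoptotic cells were called in both directions. Of 23 measured genes 7 were called lower (30.4% against 9.99% of all genes) and 2 higher (8.7% against 5.21%), 9 lay within 2-fold, and the median was -0.38. Of the bridging proteins that link dying cells to the phagocyte, milk fat globule protein (Mfge8) measured 282, 266 and 289.7 at 18 h against 2697, 2397 and 2284 (log2 fold change -3.07 ± 0.14, adjusted p = 1.27e-12), protein S (Pros1) 1604, 1375 and 1099 at 18 h against 10010, 8214 and 7713 and thrombospondin 1 (Thbs1) 1819, 2531 and 701 at 18 h against 9381, 9869 and 7934, all called lower. Gas6, the other ligand of the TAM receptors, was not called at signals of 108, 122 and 124 at 18 h against 131, 99.2 and 114. Of the receptors, Cd36 was lower at 3996, 5235 and 2982 at 18 h against 14180, 13730 and 11960 (log2 fold change -1.74 ± 0.24, adjusted p = 7.67e-06), and Mertk, the TAM receptor of resting macrophages, was not called at 2172, 2211 and 2332 at 18 h against 4944, 3367 and 4543 (log2 fold change -0.91 ± 0.17, 52.2% of resident), except without resident replicate 2, where it was called lower. The integrin subunits that bind bridging proteins went opposite ways. Itgb5 measured 3645, 3822 and 2752 at 18 h against 78.7, 89.0 and 70.3 (log2 fold change 5.17 ± 0.16, adjusted p = 7.56e-15) and Itgb3 3.08, 53.9 and 11.3 at 18 h against 548, 562 and 394 (log2 fold change -3.99 ± 0.36, adjusted p = 2.83e-08), while their shared partner Itgav lay within 2-fold at 0.64. Of the engulfment machinery inside the cell, Rac1, Elmo1, Dock1 and Dock2 lay within 2-fold with log2 fold changes of 0.09, 0.41, -0.12 and -0.43. Anxa5, annexin A5, which binds phosphatidylserine, was higher at 11360, 12160 and 10440 at 18 h against 3088, 2403 and 2830, and Abca1, the transporter that exports cholesterol after uptake, lower at 3495, 4156 and 2091 at 18 h against 13000, 7433 and 9129.

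Among 14 scavenger receptor genes, 6 were called lower (42.9% against 9.99% of all genes) and 1 higher (7.14% against 5.21%), and 4 lay within 2-fold, with a median of -0.62. Marco, a class A receptor for bacteria and particles, measured 836, 869 and 1263 at 18 h against 14890, 17020 and 16100 (log2 fold change -4.02 ± 0.66, adjusted p = 6.7e-05), and Colec12, a collectin receptor, 74.0, 94.6 and 74.0 at 18 h against 946, 638 and 816. Cd5l, which encodes a secreted scavenger receptor protein of tissue macrophages, measured 4635, 4158 and 3537 at 18 h against 23700, 26580 and 25390 (log2 fold change -2.62 ± 0.35, adjusted p = 5.81e-06), 16.3% of resident against 6.18% for Marco. Msr1 was not called at 13090, 11900 and 10190 at 18 h against 20820, 19310 and 20090. Cd68, a marker of the lysosomes and late endosomes of macrophages, was within 2-fold at 13880, 16940 and 19680 at 18 h against 13770, 18630 and 17860, and so was Cd163, the haemoglobin scavenger, at a log2 fold change of 0.27. Mrc1 was the sole member called higher.

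The lectins and partners that sense yeast wall were mixed, with 5 of 18 called higher (27.8% against 5.21% of all genes), 3 lower (16.7% against 9.99%) and 7 within 2-fold, and a median of 0.38. Dectin-1, Clec7a, the receptor for beta-glucan, was within 2-fold at 6458, 10790 and 9104 at 18 h against 8737, 6179 and 7180, as were Tlr2 and Clec4e (Mincle) at -0.13 and -0.29. Dectin-2, Clec4n, was higher at 2967, 2621 and 1634 at 18 h against 240.2, 322 and 274 (log2 fold change 3.01 ± 0.19, adjusted p = 1.03e-10), and the neighbouring gene Clec4d was lower at 9195, 6801 and 6161 at 18 h against 23030, 22450 and 30430 (log2 fold change -1.78 ± 0.16, adjusted p = 1.89e-08). Tlr1, which pairs with TLR2, was higher at 3671, 4561 and 4251 at 18 h against 695, 571 and 736. So were Malt1, the protease of the CARD9 pathway, at 1275, 3551 and 2288 at 18 h against 360.1, 419 and 498, and galectin-3 (Lgals3), which binds beta-mannosides, at 18920, 15520 and 21400 at 18 h against 7287, 6741 and 8137. Cd209b, which encodes SIGNR1, a receptor for yeast mannan, measured 31.6, 22.4 and 18.2 at 18 h against 870.3, 615 and 718 (log2 fold change -4.26 ± 0.37, adjusted p = 1.37e-08). The kinase Syk, the adaptor Bcl10 and the phospholipase Plcg2 lay within 2-fold at 0.33, 0.71 and 0.42. Of 21 Toll-like and NOD-like receptors and partners, 2 were higher (9.52% against 5.21% of all genes), 4 lower (19.0% against 9.99%) and 9 within 2-fold, with a median of -0.30. Besides Tlr1, Tlr5, the flagellin receptor, was higher (1.38). Of the nucleic acid receptors, Tlr3 and Tlr7 were lower at -1.44 and -1.47, and so were the cytosolic sensors Nod1 and Naip5 at -1.88 and -1.58. Tlr4, Tlr9, Nlrp3, Aim2 and Pycard lay within 2-fold.

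The 3 measured fatty acid binding protein genes, Fabp4, Fabp5 and Fabp7, were lower at 18 h. The lipid handling list had 2 of 27 measured genes higher (7.41% against 5.21% of all genes), 6 lower (22.2% against 9.99%) and 12 within 2-fold, with a median of -0.41. Besides Fabp4, the binding protein Fabp7 was lower at 1103, 849 and 539.9 at 18 h against 6012, 7596 and 6903 (log2 fold change -3.07) and Fabp5 at 7344, 8549 and 8262 at 18 h against 22740, 23630 and 24230 (-1.55). Apoc1, an apolipoprotein, was lower at 33.2, 27.9 and 19.9 at 18 h against 1120, 1035 and 791 (log2 fold change -4.57 ± 0.38, adjusted p = 7.29e-09), while Apoe was not called at 16510, 17790 and 18250 at 18 h against 31160, 31030 and 33470. Pparg, the nuclear receptor PPAR gamma, was higher at 144, 194 and 102 at 18 h against 12.5, 2.89 and 3.53 (log2 fold change 2.91 ± 0.47, adjusted p = 4.66e-05), from resident signals below the 15 added before the logarithm. Dgat2, which makes triglyceride, was also higher at 1.60. The lipid droplet coat gene Plin2, the lysosomal lipase Lipa and Cpt1a, which brings fatty acids into mitochondria, lay within 2-fold at 0.08, -0.02 and -0.00. Of 19 genes of fatty acid synthesis and desaturation, 2 were higher (Scd2, and Elovl6 at 1.26) and 3 lower, with 9 within 2-fold and a median of -0.06. These shares were 10.5% against 5.21% of all genes and 15.8% against 9.99%. Acaca, acetyl-CoA carboxylase, was lower at 699.7, 706 and 961 at 18 h against 5232, 4560 and 4856 (log2 fold change -2.62 ± 0.15, adjusted p = 4.64e-11), whereas Fasn, the next enzyme, lay within 2-fold at 730.4, 459.6 and 697 at 18 h against 714, 593 and 525. Mlxipl, a carbohydrate-responsive transcription factor, was lower at -1.51, a call that was lost with a pseudocount of 1 and without 18 h replicate 2 or 3.

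Cholesterol synthesis genes were higher in 6 of 20 (30% against 5.21%) and lower in 0, with 8 within 2-fold and a median of 0.62. Squalene epoxidase (Sqle) measured 2039, 1254 and 1652 at 18 h against 95.4, 194 and 134 (log2 fold change 3.44 ± 0.30, adjusted p = 1.39e-08) and lanosterol demethylase (Cyp51) 1072, 643 and 964 at 18 h against 123, 148 and 136 (log2 fold change 2.57 ± 0.20, adjusted p = 3.28e-09). Other enzymes called higher were Hmgcs1, HMG-CoA synthase, by 1.90, Idi1 by 2.34, Fdps by 1.61 and squalene synthase (Fdft1) by 2.12. The enzyme genes Mvk, Mvd, Msmo1, Hsd17b7 and Dhcr7 were not called, with log2 fold changes of -0.79, 0.70, 0.98, 0.66 and 0.50, although Msmo1 was called higher with a common array median, with array weights and without replicate 2 of either group. Among members within 2-fold were Pmvk at 0.37, Ebp at -0.02 and Nsdhl at 0.29, the regulator gene Srebf2 at 0.08 and its target Insig1 at 0.50. The 18 h mean of Sqle lay below its 4 h mean of 2943 ± 901 and above its 72 h mean of 177 ± 38.7 (SD, n = 3 each).

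Eicosanoid genes were lower in 5 of 17 (29.4% against 9.99% of all genes) and higher in 2 (11.8% against 5.21%), with 7 within 2-fold and a median of -0.20. Besides Alox15 and Ptgis, the 5-lipoxygenase gene Alox5, which starts leukotriene synthesis, was lower at 1839, 1596 and 1201 at 18 h against 6104, 6491 and 5610 (log2 fold change -1.98 ± 0.24, adjusted p = 1.56e-06). Its activating protein Alox5ap lay within 2-fold at 24670, 23430 and 27520 at 18 h against 27310, 28370 and 30990, and so did leukotriene A4 hydrolase (Lta4h, 0.10). Prostaglandin E synthase (Ptges) was lower at -1.76, and Pla2g15, a lysosomal phospholipase, at -1.58. The inducible cyclooxygenase Ptgs2 was higher at 516, 1231 and 1199 at 18 h against 72.4, 329 and 401 (log2 fold change 2.00 ± 0.46, adjusted p = 0.00175), and so was Cyp4f18, which inactivates leukotriene B4, at 2159, 1941 and 2651 at 18 h against 142, 160.3 and 187 (log2 fold change 3.67 ± 0.42, adjusted p = 7.31e-07). Tbxas1, thromboxane synthase, and Pla2g4a, the phospholipase that frees arachidonic acid, lay within 2-fold at 0.40 and 0.20.

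Growth factors and matrix genes were called in both directions, with 4 of 20 higher, 7 lower and 3 within 2-fold and a median of -0.40. Beyond Tgfb2, Ltbp1 and Prg4, insulin-like growth factor 1 (Igf1) was lower at 180.5, 588 and 315 at 18 h against 6472, 3977 and 5275 (log2 fold change -3.93 ± 0.51, adjusted p = 3.42e-06) and Ecm1, extracellular matrix protein 1, at 9570, 8651 and 9578 at 18 h against 25810, 28020 and 28690. Versican (Vcan), a large proteoglycan of young monocytes, was higher at 8430, 7638 and 6004 at 18 h against 171, 154 and 191 (log2 fold change 5.29 ± 0.23, adjusted p = 7.02e-13), although 3 of its 6 measured probe sets changed by less than 2-fold. Vegfa, vascular endothelial growth factor A, was higher at 182, 295 and 199 at 18 h against 17.1, 13.9 and 49.1 (2.59). Fibronectin (Fn1) lay within 2-fold at 26750, 27390 and 30880 at 18 h against 30440, 30440 and 34360, and Tgfbi at 0.33. The metalloproteinase list had 5 of 15 higher (33.3% against 5.21%), 2 lower (13.3% against 9.99%) and 3 within 2-fold, with a median of 0.79. The tissue inhibitors Timp1 and Timp2 went opposite ways. Timp1 measured 1583, 1879 and 1833 at 18 h against 62.7, 98.4 and 54.1 (log2 fold change 4.39 ± 0.23, adjusted p = 8.51e-12) and Timp2 5370, 3674 and 4744 at 18 h against 27900, 26710 and 29640 (log2 fold change -2.62 ± 0.21, adjusted p = 5.52e-09). Mmp14, a membrane-bound collagenase, was higher at 2.55, and Adam17, which sheds TNF, lay within 2-fold at 0.52.

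In the coagulation and plasminogen list 7 of 16 measured genes were lower (43.8% against 9.99% of all genes), 2 higher (12.5% against 5.21%) and 3 within 2-fold, with a median of -0.54. Besides factor V and protein S, Serpinb6a, a protease inhibitor, measured 2655, 2322 and 2208 at 18 h against 9938, 9541 and 12370 (log2 fold change -2.14). Plasminogen activator inhibitor 2 (Serpinb2) measured 9795, 9433 and 4145 at 18 h against 24880, 23660 and 26200, 31.3% of resident. Tissue factor (F3), which starts coagulation, was lower at -1.68. The cross-linking factor XIII A chain (F13a1), a gene of monocytes, was higher at 20340, 19710 and 20010 at 18 h against 6064, 5131 and 5891 (log2 fold change 1.81 ± 0.21, adjusted p = 8e-07), as was annexin A2 (Anxa2), a plasminogen receptor, at 28110, 24520 and 30920 at 18 h against 8325, 7835 and 8881.

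Adhesion genes were called in both directions, with 7 of 24 higher (29.2% against 5.21% of all genes), 8 lower (33.3% against 9.99%) and 5 within 2-fold and a median of 0.00. Lower at 18 h were the laminin receptor chain Itga6 at 1464, 1450 and 1103 at 18 h against 23750, 24150 and 25350 (log2 fold change -4.18 ± 0.29, adjusted p = 6.1e-10), the tetraspanin Cd9 at 1231, 1559 and 1084 at 18 h against 9567, 10190 and 10960 (log2 fold change -2.99 ± 0.34, adjusted p = 7.58e-07), and Itgb1 at -1.41 and the selectin ligand Selplg at -1.16. Higher were Emb, embigin, at 7618, 8138 and 5704 at 18 h against 842, 826 and 785, and the integrin chains Itgal (LFA-1) at 1659, 1259 and 1684 at 18 h against 199, 293 and 169.7, Itgax (CD11c) at 433, 557 and 424 at 18 h against 83.7, 85.3 and 87.8 and Itga1, a collagen receptor, at 208, 146 and 103 at 18 h against 2.05, 18.4 and 8.60. Icam1, the ligand of LFA-1, was higher at 1.21. The leukocyte integrin beta chain Itgb2 and Itga4 lay within 2-fold at -0.38 and -0.65.

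**Figure D3:**
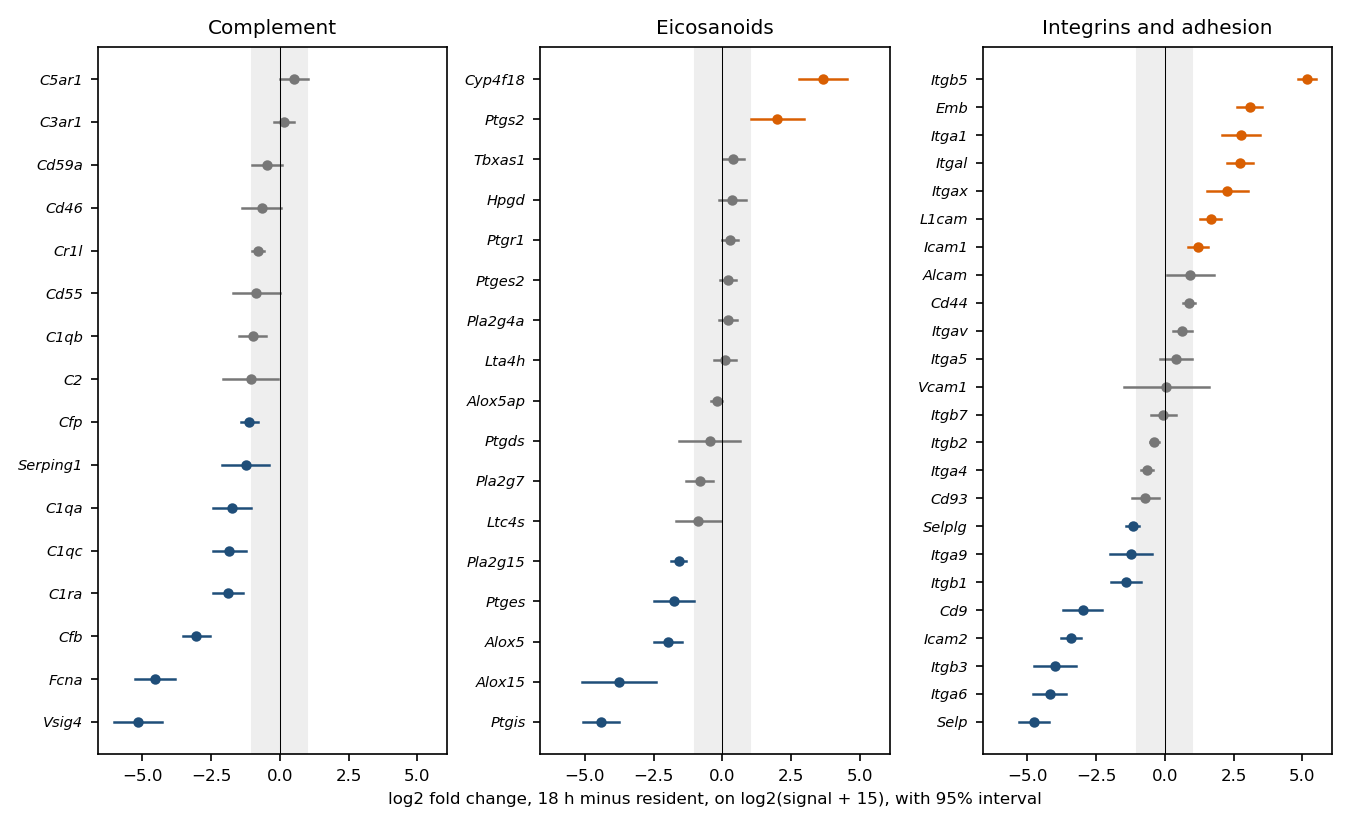
Log2 fold change (18 h minus resident) of each measured complement, eicosanoid and adhesion gene, as a point with its 95% interval, with genes called higher or lower in colour and the band from -1 to 1 shaded. Vsig4 and Fcna, Ptgis and Alox15, and Selp and Itga6 lie furthest to the left, and C3ar1, Alox5ap and Itgb2 lie inside the band.

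Monocyte genes were higher in 13 of 26 (50% against 5.21% of all genes) and lower in 1, with 9 within 2-fold and a median of 1.31. Ms4a4c, a tetraspan membrane protein, measured 8191, 7372 and 8916 at 18 h against 59.1, 138 and 69.4 (log2 fold change 6.37 ± 0.32, adjusted p = 5.54e-12) and Chil3, a chitinase-like protein, 20930, 22230 and 19370 at 18 h against 242, 362 and 250.3 (log2 fold change 6.14 ± 0.41, adjusted p = 2.77e-10). Plac8 measured 20010, 15810 and 23080 at 18 h against 603, 1462 and 1092 (log2 fold change 4.27 ± 0.26, adjusted p = 6.71e-11), and Cx3cr1, the fractalkine receptor, 1537, 1763 and 1890 at 18 h against 68.6, 27.1 and 19.2 (log2 fold change 5.14 ± 0.39, adjusted p = 2.22e-09). None of the 18 h arrays overlapped a resident array for these 4 genes. The calcium-binding proteins S100a4 and S100a6 were higher at 2.76 and 3.24, and the high-affinity Fc receptor Fcgr1 at 8480, 6474 and 8418 at 18 h against 2167, 2382 and 2459. Lysozyme (Lyz2), Ifitm3 and haptoglobin (Hp) lay within 2-fold at -0.03, -0.01 and 0.02. The receptor of granulocyte colony-stimulating factor, Csf3r, was the member called lower, at 1543, 1768 and 1652 at 18 h against 5756, 5706 and 5831 (log2 fold change -1.79).

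Among chemoattractant receptors 5 of 21 were higher (23.8% against 5.21% of all genes), 4 lower (19.0% against 9.99%) and 4 within 2-fold, with a median of 0.16. Ltb4r1 had the largest increase of all genes called, at 3934, 3619 and 4291 at 18 h and 4.70, 7.96 and 5.86 in resident macrophages (log2 fold change 7.55 ± 0.27, adjusted p = 5.25e-14). Its resident signals lay below the 15 added before the logarithm, which therefore sets the size of the fold change. The sphingosine phosphate receptor S1pr2 was higher at 1.35. Another sphingosine phosphate receptor, S1pr1, was lower at 360.2, 284 and 255 at 18 h against 1873, 1812 and 1337 (-2.42), and so was Ackr3, a scavenging receptor for CXCL12, at 360.1, 168 and 206 at 18 h against 3041, 1482 and 2133 (-3.11). The chemokine receptor Ccr1 lay within 2-fold at -0.44, and the formyl peptide receptor Fpr2 was not called at 0.68.

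Chemokine genes were higher in 8 of 24 (33.3% against 5.21% of all genes) and lower in 4 (16.7% against 9.99%), with 6 within 2-fold and a median of 0.36. The ligands of CCR2 were higher, Ccl12 at 289.9, 431 and 845 at 18 h against 6.44, 32.6 and 6.54 (log2 fold change 4.13 ± 0.60, adjusted p = 1.55e-05), Ccl7 at 406, 1933 and 1422 at 18 h against 95.6, 146 and 140.5 and Ccl2 at 2291, 5173 and 5564 at 18 h against 407, 763 and 648. Ccl5 and Cxcl10, which draw T cells, were higher at 3.43 and 1.92. Besides Cxcl13, chemokines called lower included Cxcl12 at 53.8, 76.0 and 48.1 at 18 h against 2157, 2053 and 2309 (log2 fold change -4.90 ± 0.38, adjusted p = 3.11e-09) and platelet factor 4 (Pf4) at 11710, 9512 and 9286 at 18 h against 32020, 32410 and 37990 (-1.75), while Cx3cl1 lay within 2-fold at -0.27. Another probe set of Cxcl12 changed by less than 2-fold. Cxcl2, Ccl3, Ccl6 and Ccl9 lay within 2-fold, Cxcl2 at 21690, 27840 and 31550 at 18 h against 24840, 30050 and 32460.

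Inflammatory cytokines and enzymes were called higher in 7 of 22 (31.8% against 5.21% of all genes) and lower in 5 (22.7% against 9.99%), with 6 within 2-fold and a median of 0.23. Il1b, interleukin-1 beta, measured 3333, 5882 and 3624 at 18 h against 73.0, 202 and 186 (log2 fold change 4.73 ± 0.42, adjusted p = 1.81e-08), and its antagonist Il1rn 456, 570.4 and 406 at 18 h against 112, 94.9 and 104 (2.04). For Il1rn, 2 of 3 measured probe sets changed by less than 2-fold. Tnf measured 458, 1653 and 1844 at 18 h against 98.5, 508 and 328 (log2 fold change 2.06 ± 0.50, adjusted p = 0.0027), and its arrays overlapped, because 18 h replicate 1 lay below resident replicate 2. That replicate was also the lowest of its group in Egr1, an immediate early gene, at 1473, 9517 and 13150 for the 3 arrays of 18 h. Tnfaip3, a brake on NF-kB, was higher at 1.73. BAFF (Tnfsf13b), a B-cell survival factor, was lower at 69.6, 74.5 and 122 at 18 h against 1347, 1001 and 1237 (log2 fold change -3.57 ± 0.30, adjusted p = 9.63e-09). Nfkbia, Osm, Il10 and Il18 lay within 2-fold, Il10 at -0.01. The list of genes tied to handling of cells had 2 of 21 higher (Dusp2 and Hsph1, at 2.06 and 1.70), 0 lower and 12 within 2-fold. Its shares were 9.52% higher against 5.21% of all genes and 57.1% within 2-fold against 58.9%. The summed signal of that list ran from 183000 to 252900 at 18 h and from 163600 to 220600 in resident cells.

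Few interferon response genes were called. Of 28 measured genes 1 was higher and 1 lower (3.57% each, against 5.21% and 9.99% of all genes), 14 lay within 2-fold (50% against 58.9%) and the median was 0.22. Ifit2 was higher at 262, 375 and 524 at 18 h against 16.4, 155 and 106 (2.17), and the immunity-related GTPase Iigp1 lower at 71.9, 97.2 and 632 at 18 h against 1413, 3985 and 4328 (log2 fold change -3.98 ± 0.98, adjusted p = 0.00307). The regulators Irf1, Irf7 and Irf9 lay within 2-fold at 0.16, 0.13 and 0.18.

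The list of MHC class II and costimulation genes had 7 of 19 higher (36.8% against 5.21%) and 1 lower, with 4 within 2-fold and a median of 0.62. The higher members include Cd83 (1.62), which is not a class II gene. H2-Aa measured 20100, 20150 and 30350 at 18 h against 5809, 14260 and 9141 (log2 fold change 1.34 ± 0.31, adjusted p = 0.00202), H2-Eb1 10340, 13980 and 18130 at 18 h against 3420, 8493 and 4312 and the invariant chain Cd74 15620, 18210 and 15040 at 18 h against 4190, 13490 and 4774. H2-Ab1 measured 7676, 9701 and 12250 at 18 h against 2141, 7887 and 3877 (log2 fold change 1.26) with overlapping arrays, since resident replicate 2 was the highest of its group in these genes and resident replicate 1 the lowest. Ciita, the regulator of the class II genes, was higher at 193, 279 and 345 at 18 h against 112, 96.0 and 108 (1.22). The call of H2-Ab1 was lost without resident replicate 1, that of Cd74 with the Gapdh ratio as a covariate, that of Ciita with a pseudocount of 4 times 15, and that of H2-DMb2 (1.17) under 7 of 22 alternatives. The protease Ctss and Cd40 lay within 2-fold, and the costimulatory ligand Cd86 was lower at -1.02, a call lost with a common array median and without 18 h replicate 3 or resident replicate 1.

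Markers of other antigen-presenting cells were also often higher at 18 h. Resident replicate 2, the highest of its group in H2-Aa, H2-Eb1, Cd74 and H2-Ab1, was the lowest in the B-cell genes Ms4a1, Cd79b and Ighm. In the dendritic cell list, the resident replicates measured 124, 309 and 269 for H2-DMb2 and 242, 214 and 247 for Batf3. Of 13 B-cell genes 8 were higher (61.5% against 5.21% of all genes) and 2 lower (15.4% against 9.99%), with a median of 1.55. Ms4a1, which encodes CD20, measured 2185, 1968 and 1228 at 18 h against 432, 175 and 314 and Cd79b, a chain of the B-cell receptor, 619, 639 and 508 at 18 h against 189.8, 115 and 174. Ighm, the heavy chain of IgM, measured 2661, 2900 and 2980 at 18 h against 262, 109.5 and 163 on the probe set used, but its probe sets disagreed in direction. Pax5, the B-lineage factor, was within 2-fold at 55.1, 96.0 and 126 at 18 h against 109, 60.1 and 95.6, near the median of the table. The summed signal of the 13 genes ran from 7243 to 9352 at 18 h and from 5642 to 7559 in resident macrophages. The brightest of them, Bank1, was lower at 1520, 1485 and 1303 at 18 h against 5143, 4295 and 5368, and without it the sums were 5940 to 7867 at 18 h against 1347 to 2416. Of 10 dendritic cell genes 6 were higher and 0 lower, among them Batf3 at 692, 736 and 1297 at 18 h against 242, 214 and 247, while Flt3 had a log2 fold change of -0.17 and the probe sets of Zbtb46 disagreed, and summed signals over 14 matched genes were 2213 to 2611 against 1209 to 1345. The part of these cells in the class II result was not tested. T and NK genes were higher in 3 of 9 (33.3% against 5.21%), namely Cd2, Gzma and Il7r, while Cd3e, Cd3d and Cd3g did not pass the filter. Neutrophil genes were higher in 2 of 15 (13.3% against 5.21%) and lower in 1 (6.67% against 9.99%), with summed signals of 3980 to 5288 against 7420 to 7557. Without Csf3r, the brightest and the member called lower, the sums were 2328 to 3520 at 18 h against 1714 to 1734, and S100a8 stood at 521, 566 and 289 at 18 h against 241, 258 and 226. Of 18 mesothelial and fibroblast genes 13 did not pass the filter and 1 (Pdpn) was higher. Of 9 mast cell genes 1 was lower (Hdc, which makes histamine, at -3.78), of 10 erythroid and platelet genes 1 was higher and 1 lower (Pf4), and of 2 measured eosinophil genes Alox15 was lower.

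Genes of alternative activation were called higher in 10 of 21 (47.6% against 5.21% of all genes) and lower in 1, with 3 within 2-fold and a median of 1.00. Arg1, arginase 1, measured 28100, 27590 and 33600 at 18 h and 11600, 10510 and 10350 in resident macrophages (log2 fold change 1.46 ± 0.31, adjusted p = 0.00101). Retnla, a secreted resistin-like protein, measured 13340, 17340 and 22390 at 18 h against 11340, 5056 and 6853 (1.24) and Tgm2, a transglutaminase, 9198, 7767 and 10890 at 18 h against 934, 1438 and 1718 (log2 fold change 2.79 ± 0.29, adjusted p = 1.97e-07). Both groups thus had bright signals for Arg1 and Retnla, and those of 18 h were 2.75 and 2.28 times the resident mean. The call of Retnla was lost without resident replicate 2. Cdh1, E-cadherin, measured 469, 648 and 600 at 18 h against 27.0, 43.0 and 24.2 (log2 fold change 3.67 ± 0.35, adjusted p = 5.07e-08), the folate receptor gene Folr2 3098, 2487 and 2790 at 18 h against 826, 809 and 876 and the carbonyl reductase Cbr2 8386, 8290 and 9903 at 18 h against 2527, 2382 and 3442. Folr2 and Cbr2 had means of 129 ± 49.8 and 311 ± 104 at 4 h, so their 18 h means lay above both the 4 h and the resident mean. Irf4 and Clec10a were not called (0.77 and 0.77), Stat6 lay within 2-fold at 0.26, and Igf1 was the member called lower.

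Fc and inhibitory receptors were higher in 6 of 20 (30.0% against 5.21% of all genes) and lower in 0, with 6 within 2-fold and a median of 0.42. The inhibitory lectin Clec4a2 measured 5892, 6278 and 5203 at 18 h against 204, 182 and 202 (log2 fold change 4.78 ± 0.21, adjusted p = 8.88e-13), and Treml2, a TREM-like receptor, 574, 540.1 and 516 at 18 h against 13.8, 13.1 and 4.39 (log2 fold change 4.48 ± 0.33, adjusted p = 1.64e-09). Trem1, which amplifies inflammatory signals, was higher at 1611, 1143 and 1370 at 18 h against 181, 155 and 228. Trem2 was not called at 366, 355 and 392 at 18 h against 114, 126 and 262 (1.17), except in the fit on the 6 arrays alone, where it was called higher. Fcgr2b, the inhibitory Fc receptor, lay within 2-fold at 13610, 16760 and 18050 at 18 h against 14700, 13890 and 16060. In the list of solute transport and purines, 6 of 23 were higher (26.1% against 5.21%) and 5 lower (21.7% against 9.99%), with 4 within 2-fold and a median of -0.12. The UDP receptor P2ry6 was higher at 5517, 4964 and 4997 at 18 h against 636, 674 and 592 (log2 fold change 3.00 ± 0.21, adjusted p = 7.22e-10). The ecto-enzymes that turn ATP into adenosine were both lower, Entpd1 (CD39) at -1.12 and Nt5e (CD73) at -5.00. Aqp9, a channel for water and glycerol, was lower at 257, 242 and 229 at 18 h against 3542, 2480 and 2900, and Slc7a2, an arginine transporter, at -1.57.

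Glycolysis and hypoxia genes were higher in 10 of 25 (40% against 5.21%) and lower in 2, with 7 within 2-fold and a median of 0.84. The glucose transporter gene Slc2a1 measured 2378, 2245 and 3023 at 18 h against 346, 352 and 392 (log2 fold change 2.75 ± 0.18, adjusted p = 1.61e-10) and Ndrg1, a hypoxia-responsive gene, 1249, 898 and 1303 at 18 h against 137, 174 and 154 (log2 fold change 2.76 ± 0.18, adjusted p = 2.4e-10). Hif1a, the hypoxia-inducible factor, measured 13880, 14380 and 11330 at 18 h against 5583, 4694 and 4807 (1.39), and the glycolytic enzymes Pgk1, Tpi1 and Pgam1 were higher at 1.66, 1.63 and 1.42. Gapdh, Ldha and Aldoa lay within 2-fold at -0.03, 0.21 and 0.63, and the prolyl hydroxylase Egln3 was lower at -1.23, except with the Gapdh ratio as a covariate. In the nuclear-encoded respiratory chain 26 of 27 genes lay within 2-fold (96.3% against 58.9% of all genes), with a median of 0.13. Cytochrome c (Cycs) was the exception at 1.12, a call lost without 18 h replicate 3.

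Of the lysosomal genes 23 of 30 lay within 2-fold (76.7% against 58.9% of all genes), with 1 higher, 3 lower and a median of -0.21. Ctsb, Ctsd, Ctss, Lamp1 and Lamp2 lay within 2-fold, cathepsin B at 24870, 24750 and 26840 at 18 h against 29070, 30140 and 30630. Called members were beta-galactosidase (Glb1) at 1037, 971 and 990.1 at 18 h against 7315, 7741 and 8151 (log2 fold change -2.93 ± 0.13, adjusted p = 7.07e-13), cathepsin F (Ctsf) at 3.90, 6.42 and 22.1 at 18 h against 705, 806 and 578 (log2 fold change -4.84 ± 0.28, adjusted p = 4.64e-11), acid alpha-glucosidase (Gaa), which was lower at -1.06 but not called with a common array median or without resident replicate 2, and the proton pump subunit Atp6v0d2, which was higher at 1.44 but not called with a pseudocount of 4 times 15. Iron and heme genes had 1 of 20 higher (Tfrc, the transferrin receptor, at 1.13, not called without 18 h replicate 2) and 2 lower, with 10 within 2-fold and a median of -0.17. Ceruloplasmin (Cp), a ferroxidase that supports iron export, was lower at 51.9, 96.6 and 142 at 18 h against 3761, 4545 and 4339 (log2 fold change -5.32 ± 0.54, adjusted p = 1.19e-07), and biliverdin reductase B (Blvrb) at 1293, 680.4 and 1249 at 18 h against 3763, 4082 and 4126. Antioxidant and itaconate genes were lower in 6 of 22 (27.3% against 9.99% of all genes) and higher in 0, with 9 within 2-fold and a median of -0.32. They included Mgst1, a microsomal glutathione transferase, at 2529, 2340 and 2715 at 18 h against 13580, 14790 and 14930 (log2 fold change -2.51 ± 0.11, adjusted p = 1.04e-12), glutathione peroxidase 3 (Gpx3) at -2.12, and metallothionein 1 (Mt1) at -1.71. The superoxide dismutase Sod2 and glutathione peroxidase Gpx1 lay within 2-fold at 0.44 and -0.12.

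Genes of mitosis were lower in 22 of 28 (78.6% against 9.99% of all genes) and higher in 0, with 1 within 2-fold and a median of -2.00. Mki67, which marks cycling cells, measured 480, 434 and 382 at 18 h and 662, 2548 and 3536 in resident macrophages (log2 fold change -2.04 ± 0.54, adjusted p = 0.00531). Resident replicate 1 was far below the other resident arrays in Mki67, yet the groups did not overlap. Top2a, topoisomerase 2 alpha, measured 455, 306 and 293 at 18 h against 677, 1776 and 2334 (log2 fold change -1.99 ± 0.46, adjusted p = 0.00196), the kinetochore gene Nuf2 6.74, 6.78 and 15.3 at 18 h against 152, 326 and 529.5 (log2 fold change -3.69 ± 0.46, adjusted p = 2.04e-06) and the mitotic kinase Cdk1 127, 42.0 and 120.2 at 18 h against 249, 824 and 941. In DNA replication 8 of 28 were lower (28.6% against 9.99%) and 0 higher, with 9 within 2-fold and a median of -0.68. Mcm7 of the replicative helicase was lower at 1180, 1080 and 1337 at 18 h against 2039, 4842 and 3911, while Mcm2, Mcm4 and the clamp Pcna lay within 2-fold at -0.16, -0.48 and -0.08. The call of Rrm2, a subunit of ribonucleotide reductase, was lost under 9 of 22 alternatives.

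Lineage transcription factors were called in both directions, with 3 of 31 higher (9.68% against 5.21% of all genes), 5 lower (16.1% against 9.99%) and 10 within 2-fold (32.3% against 58.9%) and a median of 0.28. PU.1 (Spi1), the main factor of myeloid cells, lay within 2-fold at 2047, 1912 and 2242 at 18 h against 1591, 2564 and 1998, as did Irf8, Cebpa and Cebpb at 0.01, -0.15 and -0.14. Egr2, a factor induced by growth factor and cytokine signals, measured 1252, 4742 and 5151 at 18 h against 301, 674 and 349.7 (log2 fold change 2.87 ± 0.52, adjusted p = 0.00019), the aryl hydrocarbon receptor (Ahr) 1348, 2013 and 1475 at 18 h against 247, 198 and 308 (2.61) and Maf, a factor of mature macrophages, 13780, 13540 and 12890 at 18 h against 4776, 4023 and 4363 (1.61). Another probe set of Ahr changed by 0.12 and another of Maf by 0.26. Id2 and Id1, inhibitors of helix-loop-helix factors, were lower at -1.22 and -1.60. In the receptor list 3 of 24 were higher (12.5% against 5.21%) and 2 lower (8.33% against 9.99%), with 12 within 2-fold and a median of 0.22. The receptor of macrophage colony-stimulating factor (Csf1r) lay within 2-fold at 25780, 25990 and 32910 at 18 h against 30210, 31110 and 34660. Met, the receptor of hepatocyte growth factor, was higher at 316, 231 and 297 at 18 h against 1.96, 3.11 and 1.40 (log2 fold change 4.10 ± 0.28, adjusted p = 3.92e-10), and Acvrl1, a type I receptor of the same family as those of transforming growth factor beta, at 731, 554 and 837 at 18 h against 37.8, 72.1 and 8.79 (log2 fold change 3.90 ± 0.40, adjusted p = 1.79e-07). Tgfbr2 was lower at 4026, 3873 and 2715 at 18 h against 10290, 8446 and 8825 (log2 fold change -1.39).

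**Figure D4:**
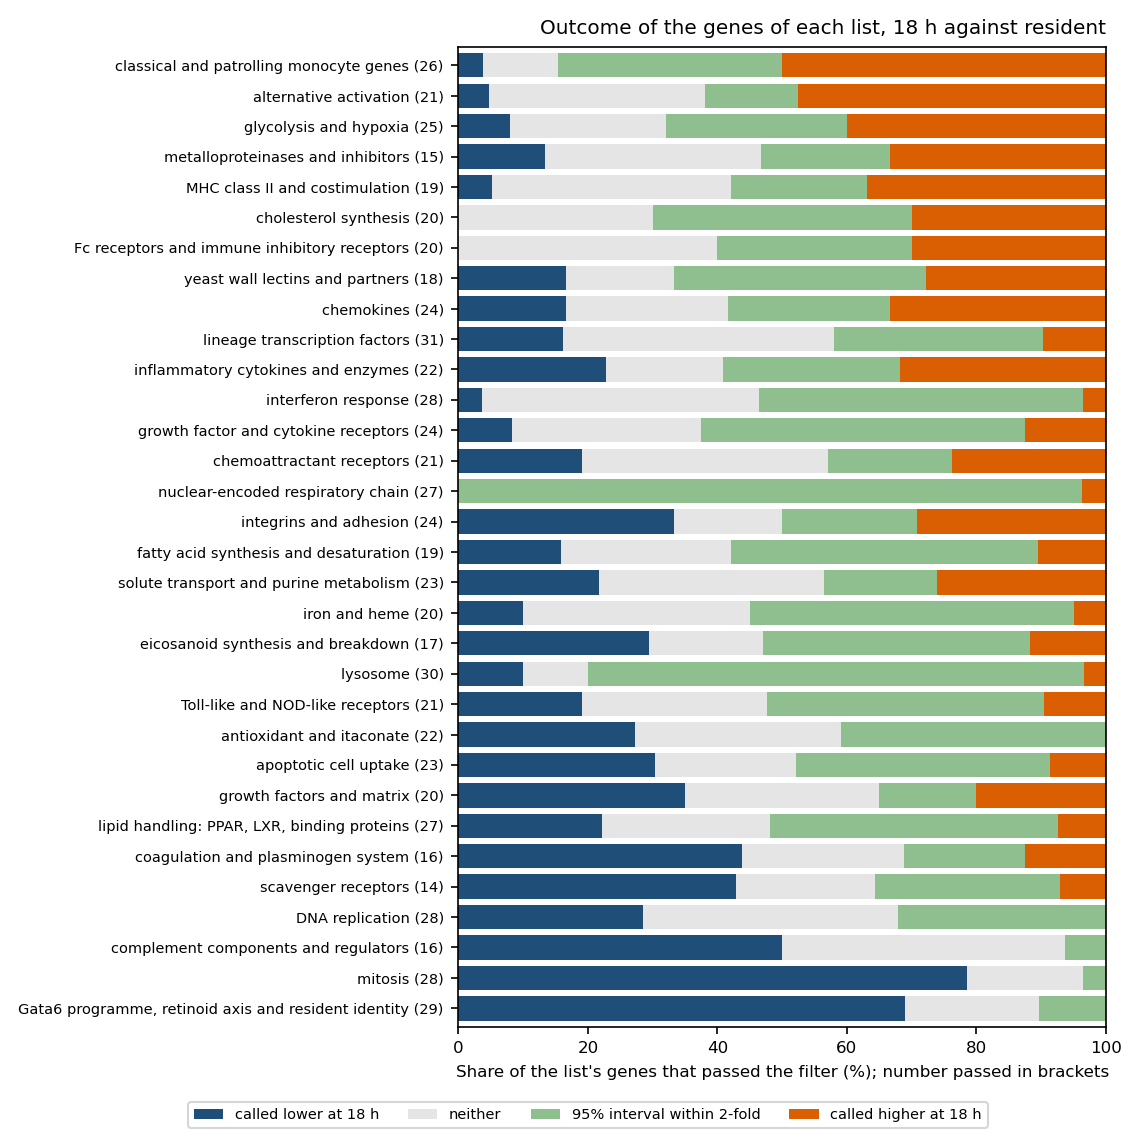
Share of each of 32 gene lists (% of its measured genes) that was called lower, called higher, lay with its 95% interval within 2-fold, or fell in neither class, for 18 h against resident, sorted by the list's median log2 fold change. The resident identity list has the lowest median (-3.76) with 69.0% called lower, mitosis has the largest share called lower (78.6%), and the respiratory chain has 26 of 27 genes within 2-fold.

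Some of the largest changes fell outside the lists. Sult1a1, a phenol sulfotransferase, measured 23.7, 53.6 and 2.75 at 18 h and 3996, 4375 and 4044 in resident macrophages (log2 fold change -6.84 ± 0.34, adjusted p = 4.19e-12), the largest decrease among genes called. Shank3, a scaffold protein, measured 3.45, 4.14 and 6.47 at 18 h against 1068, 1109 and 863 (-5.70), Wnt2 131, 199 and 140.3 at 18 h against 7462, 7041 and 7060 (-5.41) and Tox2 194, 100.1 and 138 at 18 h against 8307, 7211 and 7050 (-5.61). Fascin (Fscn1), which bundles actin, measured 98.2, 133 and 78.8 at 18 h against 6811, 3444 and 4250 (-5.32) and Afap1l1 35.5, 34.1 and 21.1 at 18 h against 1579, 1416 and 1962 (-5.21). In the other direction gelsolin (Gsn), which cuts actin filaments, measured 9833, 7714 and 9552 at 18 h against 74.8, 58.5 and 55.7 (log2 fold change 6.86 ± 0.33, adjusted p = 2.61e-12). Plbd1, a phospholipase B-like protein, measured 17820, 16610 and 17850 at 18 h against 518, 409.7 and 326 (5.36) and Galnt6, which starts O-linked sugar chains, 1249, 1233 and 1207 at 18 h against 12.5, 15.8 and 10.5 (5.48). Both actin regulators, fascin and gelsolin, were thus among the 12 largest changes, in opposite directions. Other probe sets of Fscn1 and of Rad51b (-5.67) changed by less than 2-fold.

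The other groups of the series place the 18 h values. These levels are given without a test, as mean ± SD of 3 arrays. Gata6 stood at 88.3 ± 35.6 at 4 h, 208 ± 34.4 at 18 h and 3407 ± 469 at 72 h, and in the populations of 168 h at 4365 ± 591 (Ly-6B-) and 1840 ± 283 (Ly-6B+). Fabp4 was 244 ± 121 at 4 h, 341 ± 13.6 at 18 h and 14550 ± 3066 at 72 h, and Vsig4 170 ± 184, 709 ± 182 and 19570 ± 5100. In these genes the 18 h mean lay close to the 4 h mean on the scale of the resident level, and the 72 h mean near the resident one. The Ly-6B+ cells of 168 h lay between, with means of 4094 ± 899 for Fabp4 and 1682 ± 692 for Vsig4. C1qa had another pattern, with 615 ± 475 at 4 h, 8589 ± 885 at 18 h and 23350 ± 4283 at 72 h, and so had Cd5l, with 519 ± 504, 4110 ± 551 and 25100 ± 2438. Some genes were highest at 18 h among all 7 groups. Mrc1 had means of 373 ± 50.4 in marrow monocytes, 4544 ± 439 at 4 h, 17990 ± 2966 in the 18 h cells and 3260 ± 815 in those of 72 h. Arg1 was 4556 ± 2459 at 4 h, 29760 ± 3332 at 18 h and 19910 ± 3584 at 72 h, and Scd2 1475 ± 651, 6225 ± 1005 and 1015 ± 325. Monocyte genes at 18 h were nearer to the 4 h than to the 72 h mean for Ltb4r1, at 5749 ± 677, 3948 ± 336 and 454 ± 165, and nearer to bone marrow than to 4 h for Clec4a2 and Cx3cr1, the latter with 2073 ± 113 in marrow monocytes, 869 ± 361 at 4 h, 1730 ± 179 in the 18 h cells and 189 ± 35.6 in those of 72 h.

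**Figure D5:**
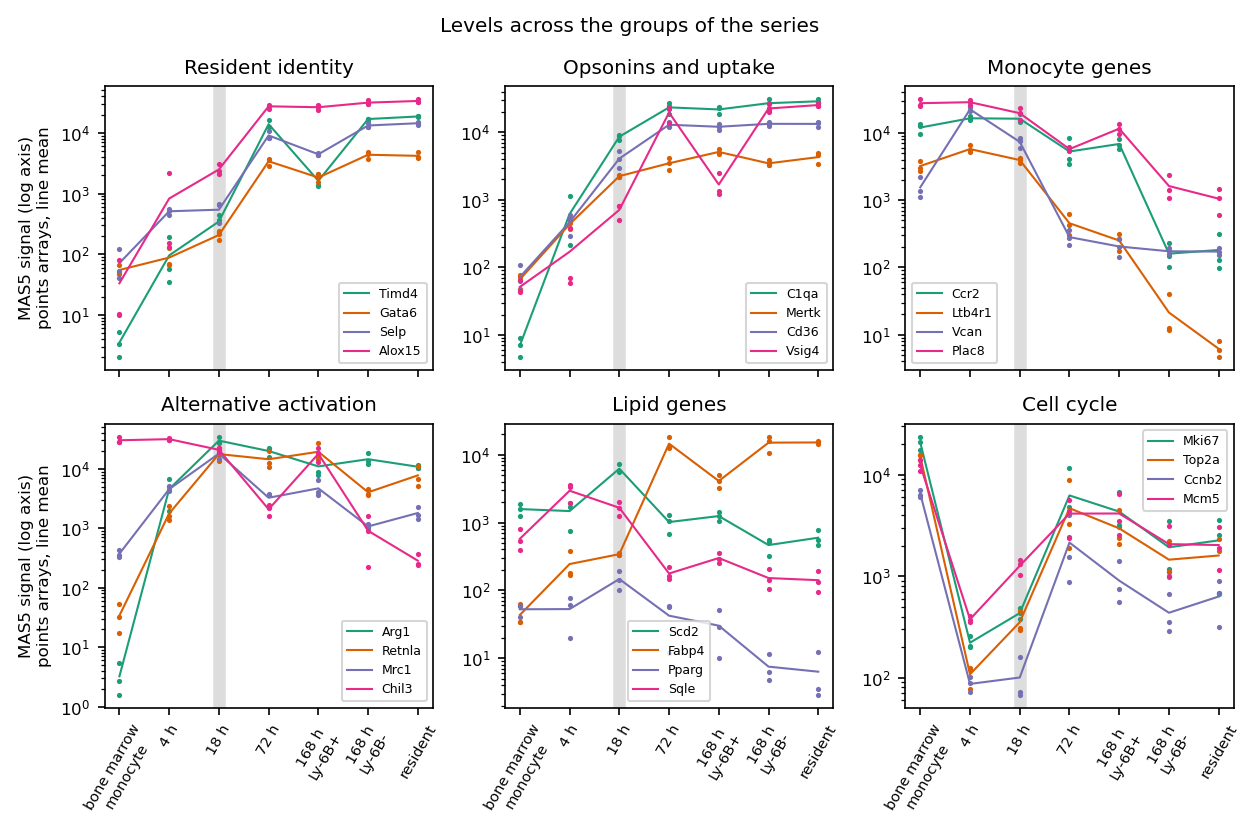
MAS5 signal (log axis) of 24 genes in 6 panels across bone marrow monocytes, 4 h, 18 h, 72 h, the Ly-6B+ and Ly-6B- populations of 168 h and resident macrophages, with each array as a point, the mean as a line and 18 h shaded. Timd4, Gata6 and Fabp4 are low at 18 h, high at 72 h and in the Ly-6B- cells of 168 h, and lower again in the Ly-6B+ cells of 168 h, C1qa lies between its 4 h and 72 h levels at 18 h, and Mrc1 and Scd2 peak at 18 h.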

How the data were processed

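The deposited values are MAS5 signal intensities on a linear scale, which the authors made in Affymetrix Expression Console 1.2 per the submitters' processing notes. The 2% trimmed mean was 500.0 on every array. The genome build behind the probe sets is not given in the sources used here. Per the labels' protocols, 100 ng of RNA from cells sorted after staining on ice was amplified in 2 cycles. Of 45101 probe sets, 34958 had 1 gene symbol, and those with several (932) or not listed (9211) were left out. For each of 18194 genes the brightest probe set on average was used, and the 12169 genes with a signal above the table median (80.6) in at least 3 of 21 arrays were tested. log2(signal + 15), where 15 is the 20th percentile rounded, was fitted with limma 3.58.1 in R 4.3.3 (lmFit, eBayes with a trend) over all 21 arrays in 7 groups, with 14 residual degrees of freedom and 2-sided tests. MAS5 signals near the floor are noisy, and adding 15 shrinks the folds of low genes. Precision is limited by 3 arrays a group. P-values measure the spread between the labelled biological replicates.

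On simulated data for this comparison with 12169 genes, 86 of 100 genes changed by 1.5 on the log2 scale and 100 of 100 changed by 3 were called, as were 3 of 11969 unchanged genes. The 95% intervals covered the true value in 95.5%.

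The members and the 42 gene lists (32 of processes, 10 of other cells or quality) were chosen with earlier results of these data known, so their counts are descriptions. They held 996 entries, of which 912 matched, and counts cover genes that passed the filter. Named genes were the 12 largest non-overlapping calls in each direction, the given markers, up to 4 called members of each process list and its largest call in the rarer direction, up to 2 bright members within 2-fold, and up to 3 bright members of the other lists. Further members were named after their values were seen. Of the genes followed by name, 162 had more than 1 passing probe set, 3 of them with an opposite change of at least 2-fold in another, and 28 called genes had another that changed by less than 2-fold. Promoters were matched by symbol to RefSeq windows on GRCm38.p6.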

Additional observations from a re-analysis of the deposited data

How the results depend on the processing

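A total of 22 alternatives were run, 6 of which left out 1 array. Genes called lower numbered 778 with a filter at the 75th percentile of all values, which tested 7778 genes, 2549 without a minimum fold and 442 with limma's treat at a fold of 2. Genes called higher numbered 1858 without a minimum fold and 246 with treat. In the other fits both counts stayed within 1.5 times the reported ones, with 1170 to 1203 lower and 617 to 645 higher when 1 array was left out. With the replicate block, 1233 genes were lower and 638 higher, and no named call changed. Residuals correlated at 0.083, 0.031 and 0.157 for the same replicate number, and at -0.136 to 0.062 for different numbers. The exception to a best match with the own number was 18 h replicate 2, which correlated best with resident replicate 1 (0.062). Whether arrays of the same number share more than the number was not tested. Of 348 genes followed by name, 206 were called, and 27 of these lost the call under at least 1 alternative other than treat. The change of Zbtb46 went from 0.08 to -1.25 with the probe set chosen on the other 15 arrays, which took another probe set of the gene. Among all called genes, 6 reversed when probe sets were averaged. For other reversals and moves the cause was not tested. Folds of genes near the array floor are limited by the 15 added before the logarithm, and values of resident macrophages or 18 h cells below it have no reliable order.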
